A study of Mus musculus with 15 samples.

Results

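Mitosis genes encode the machinery that condenses the chromosomes, builds the spindle, attaches the chromosomes to it and splits the cell. The 48 genes followed here were taken by name: every probe of the array that was no control and carried one of the 48 gene names was used, which gave 66 of 55681 probes and 48 of the 22594 genes whose name was known to the reference table. All 48 were on the array. Where a gene had several probes, which held for 13 genes with up to 3 probes each, the brightest one stands for it.

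The tumors came from the livers of C57/BL6J mice that were injected with carbon tetrachloride (CCl4), a solvent that injures hepatocytes, at 0.5 µl per g of body weight for 16 weeks, in both genotypes alike. p53f/f mice carry Trp53 alleles flanked by loxP sites that are not recombined and serve as controls. In p53LKO mice the gene is deleted in the liver, so that the other cells of a tumor, such as fibroblasts, blood vessel cells and leukocytes, keep it. The 3 groups of 5 tumors each were hepatocellular carcinomas (HCC) without and with the deletion, called p53f/f HCC and p53LKO HCC, and intrahepatic cholangiocarcinomas (ICC), tumors with bile duct features, of p53LKO mice. The question posed by the design is how the loss of p53, and within p53LKO mice the type of tumor, goes with the transcriptome. The legend of the study's transcriptome figure names male mice, and p53f/f mice formed tumors much later than p53LKO mice, so that age and genotype cannot be told apart. The 5 p53f/f tumors came from 4 mice, since mouse 3717 gave 2 of them, and mice 3731, 3733, 3976 and 5283 each gave both an HCC and an ICC. Tumors are named below by mouse and tumor number (T).

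Levels are log2 signals relative to the 75th percentile of all probes on the same array, so that a level of 0 is the 75th percentile and each unit is a factor of 2. They compare tumors for 1 probe and do not rank genes against each other. Whole tumor tissue was measured, in which fewer dividing cells and less RNA per cell cannot be told apart. The share of probes well above background, which limits what an array can measure, was 55.1% to 70.1% on the 8 arrays of the upper slide row, where all p53f/f HCCs and 3 p53LKO HCCs lay, and 37% to 47% on the 7 arrays of the lower row, where all ICCs and the HCCs of mice 3976 and 5283 lay. ICC and p53f/f HCC therefore cannot be told apart from the row. The lineage markers followed the labels in all 15 tumors: the median of 7 cholangiocyte markers was 0.81 to 1.77 in ICC and -3.48 to -0.93 in the 10 HCCs, and the median of 7 hepatocyte markers was 4.13 to 5.70 in ICC and 6.24 to 7.36 in HCC. The single probe named Trp53 gave levels of -1.27 to -0.68 in p53f/f HCC, -3.86 to -2.75 in p53LKO HCC and -4.19 to -2.31 in ICC, without overlap between genotypes, but the array design places it on chromosome 17 of mm9 and the gene lies on chromosome 11, so what it says about the deleted allele was not tested.

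As background, a cell enters mitosis when cyclin-dependent kinase 1, bound to cyclin B, becomes active, and leaves it when the anaphase-promoting complex marks cyclin B and securin for destruction. Most genes of this machinery are switched on together late in the cell cycle, by a complex of MuvB with MYBL2 and FOXM1, and are held silent in resting cells by the related DREAM complex, which p53 strengthens through p21. In normal adult liver few hepatocytes divide, whereas tumors hold many dividing cells, and the protein of Mki67 (Ki-67) is a routine tissue stain for them.

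The 48 genes fall into groups by role. Mki67, Top2a and the condensin subunits Smc2, Smc4, Ncapg and Ncaph shape the chromosomes. The kinesins Kif11, Kif15, Kif18a, Kif20a, Kif22, Kif23, Kif2c and Kif4 are motor proteins that build the spindle, move chromosomes or shorten microtubules. Cdk1 acts with the cyclins Ccna2, Ccnb1 and Ccnb2 and is activated by the phosphatase Cdc25c. Plk1, Aurka, Aurkb, Nek2, Melk and Pbk are further kinases of mitosis, and Bub1, Bub1b and Ttk belong to the spindle checkpoint. Cenpa is the histone of the centromere, on which the kinetochore with Cenpe, Cenpf, Nuf2, Ndc80 and Spc25 is built. Cdc20 and Ube2c act with the anaphase-promoting complex, and Espl1 (separase) then cuts the rings that hold sister chromatids together. Tpx2, Nusap1, Hmmr and Dlgap5 bind spindle microtubules, Birc5 belongs to the chromosomal passenger complex, and Prc1, Anln, Ect2 and Racgap1 serve cytokinesis. Foxm1 and Mybl2 are the transcription factors of the set.

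Motifs of this shared control were counted in the promoters. The letters CCAAT, the recognition sequence of NF-Y, and TTTGAA or TTTAAA, known as the cell cycle genes homology region or CHR that MuvB complexes recognise, were searched on both strands in the 250 bases before the annotated start, where a CCAAT and a CHR may share a base at their ends. The promoter table of RefSeq (GRCm38.p6) held 41 windows of 39 of the 48 genes. CCAAT stood in 30 of the 41 windows (73.2%), against 33.8% of all 32851 windows of the table. A CHR stood in 21 (51.2%), against 25.2% of all windows, and both stood in 18 (43.9%), against 8.78%. The 18 windows belong to 17 genes: Mki67, Top2a, Smc2, Ncapg, Kif11, Kif22, Cdk1, Ccnb1, Ccnb2, Plk1, Cenpa, Cenpf, Cdc20, Ube2c, Espl1, Prc1 and Ect2. A match is a run of letters in a window and was not tested for binding. The windows of 6 of these genes, whose levels in every tumor are given below, are shown in the direction of the gene, ending at the base before the start, with the motifs on either strand in capitals (CCAAT reads ATTGG and TTTGAA reads TTCAAA on the opposite strand). They lie at chr7:135716380-135716629 on the minus strand (Mki67), chr11:99024190-99024439 minus (Top2a), chr10:69352913-69353162 minus (Cdk1), chr13:100786487-100786736 minus (Ccnb1), chr7:122159185-122159434 plus (Plk1) and chr4:118437344-118437593 minus (Cdc20).
Mki67: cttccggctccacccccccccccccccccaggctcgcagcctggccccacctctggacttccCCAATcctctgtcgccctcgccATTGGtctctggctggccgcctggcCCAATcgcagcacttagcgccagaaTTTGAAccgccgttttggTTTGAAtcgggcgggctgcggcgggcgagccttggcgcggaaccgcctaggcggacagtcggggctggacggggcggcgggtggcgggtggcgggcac
Top2a: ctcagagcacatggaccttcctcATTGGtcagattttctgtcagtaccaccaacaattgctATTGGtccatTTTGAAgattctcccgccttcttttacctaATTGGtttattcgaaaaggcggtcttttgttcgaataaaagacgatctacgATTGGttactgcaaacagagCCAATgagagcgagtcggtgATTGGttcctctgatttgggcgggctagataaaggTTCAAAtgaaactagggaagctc
Cdk1: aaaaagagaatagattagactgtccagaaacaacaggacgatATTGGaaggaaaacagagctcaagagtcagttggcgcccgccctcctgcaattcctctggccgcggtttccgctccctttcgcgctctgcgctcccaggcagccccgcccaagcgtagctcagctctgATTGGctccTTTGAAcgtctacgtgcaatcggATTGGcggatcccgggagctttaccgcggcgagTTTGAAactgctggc
Ccnb1: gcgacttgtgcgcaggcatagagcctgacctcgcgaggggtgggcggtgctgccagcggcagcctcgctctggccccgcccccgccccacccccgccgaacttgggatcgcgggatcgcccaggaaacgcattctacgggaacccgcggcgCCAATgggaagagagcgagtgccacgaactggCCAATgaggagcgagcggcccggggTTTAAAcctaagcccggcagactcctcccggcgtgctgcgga
Plk1: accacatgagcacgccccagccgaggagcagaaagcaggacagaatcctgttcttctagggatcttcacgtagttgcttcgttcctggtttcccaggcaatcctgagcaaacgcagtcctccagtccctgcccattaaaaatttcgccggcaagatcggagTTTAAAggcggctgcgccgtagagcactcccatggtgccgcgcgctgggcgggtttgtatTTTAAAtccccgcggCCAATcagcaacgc
Cdc20: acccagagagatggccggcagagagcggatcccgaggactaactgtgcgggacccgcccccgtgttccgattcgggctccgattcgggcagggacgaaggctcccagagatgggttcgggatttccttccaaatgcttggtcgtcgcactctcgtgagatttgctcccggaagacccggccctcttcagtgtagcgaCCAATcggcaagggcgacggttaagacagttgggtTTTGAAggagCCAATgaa

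In the promoter of Mki67, CCAAT stood at 188, 166 and 141 bases before the start and TTTGAA at 116 and 98. In the promoter of Cdc20 the last CCAAT lay 8 bases before the start and TTTGAA 18 bases before it. Ccnb1 and Plk1 carried the TTTAAA form, Ccnb1 once, at 42 bases, and Plk1 at 89 and 29 bases.

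Mitosis gene levels varied widely among tumors of the same group. The median level of the 48 genes was 0.22 in p53f/f tumor 3681 T1, -0.28 in 3715 T2, 0.49 in 3716 T1, -2.51 in 3717 T1 and -0.43 in 3717 T2. It was -0.47 in p53LKO HCC 3976 T1, 1.25 in 5283 T7, 0.17 in 3731 T2, 0.03 in 3733 T1 and -0.03 in 3975 T4. In ICC it was 0.49 in 3731 T3, -0.12 in 3733 T3, -0.67 in 3976 T8, -0.18 in 3977 T5 and 0.76 in 5283 T20. The groups overlapped, with means of -0.50 ± 1.18 in p53f/f HCC, 0.19 ± 0.64 in p53LKO HCC and 0.06 ± 0.57 in ICC (SD, n = 5 each).

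**Figure D1:**
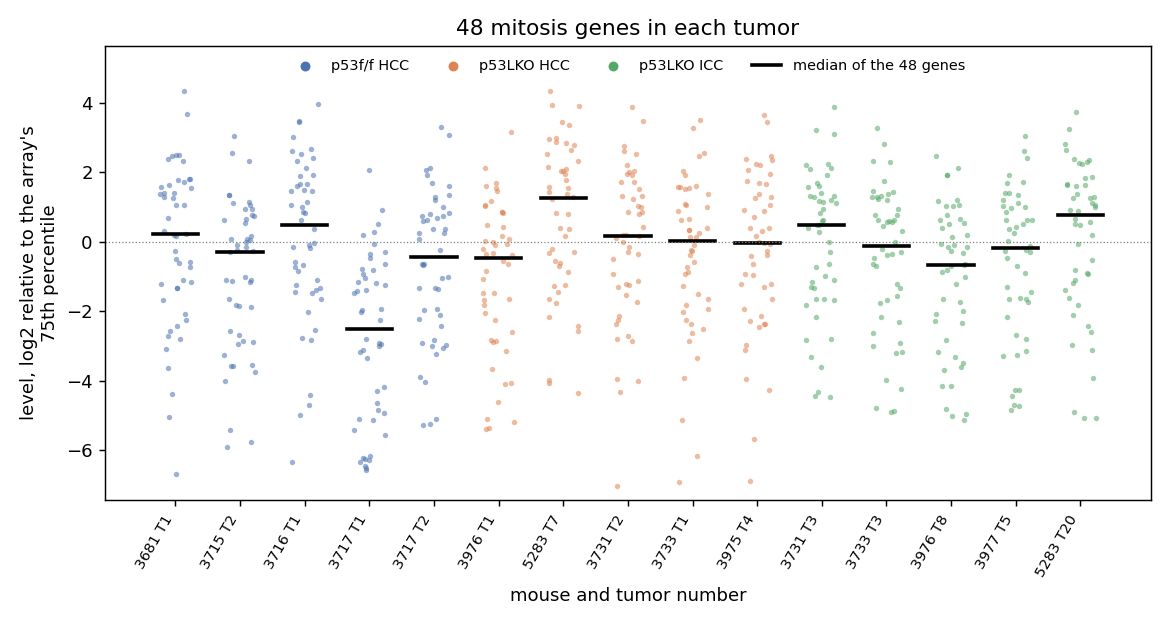
Levels of the 48 mitosis genes in each of the 15 tumors, as log2 relative to the 75th percentile of the array (vertical axis), by mouse and tumor number (horizontal axis) and coloured by group. Each point is 1 gene and the black bar is the median of the 48 genes, which is lowest in p53f/f HCC 3717 T1 (-2.51) and highest in p53LKO HCC 5283 T7 (1.25).

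A pair of HCCs stood apart from the others of their group. Tumor 3717 T1 held the lowest level of the p53f/f group in 45 of 48 genes, all but Kif18a, Cenpf and Mybl2, and the lowest of all 15 tumors in 39. Only 31 of the 48 genes were well above background there, against 36 to 47 on the other arrays, although its hepatocyte markers (median 7.12) and its share of probes well above background were in the range of its group. Its medians of the endothelial (2.88) and erythroid markers (3.80) were the highest of all 15 tumors. Tumor 5283 T7 held the highest level of the p53LKO HCC group in 44 of 48 genes, all but Ncapg, Kif15, Dlgap5 and Mybl2, and the highest of all 15 tumors in 35. On this array the share of probes well above background was the smallest of all (37%), and it had the highest median of the neutrophil markers among the HCCs (3.82). The part of these measures in the levels was not tested. Because both tumors push the difference between the HCC groups the same way, results are given with and without them.

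The second tumor of mouse 3717 did not share the low levels: 46 of 48 genes were higher in T2 than in T1, by a median of 2.19 on the log2 scale. Among the 4 mice with both tumor types, the order of the medians was the same in HCC and in ICC, with mouse 5283 highest, then 3731, 3733 and 3976. This describes 4 mice, and a part of the mouse in the levels was not tested. Within a mouse, the medians over the 48 genes differed little between ICC and HCC except in mouse 5283, while single genes differed widely, from -2.51 to 2.72 over the 4 mice. The median difference of the 48 genes, ICC minus HCC, was 0.09 in mouse 3976 (24 genes higher in ICC), 0.10 in mouse 3731 (28 higher), -0.09 in mouse 3733 (22 higher) and -0.62 in mouse 5283 (7 higher). The spread between tumors of a group was wide for mitosis genes: the median SD of the 48 was 1.23 in p53f/f HCC, 0.71 in p53LKO HCC and 0.52 in ICC, against 0.45, 0.49 and 0.33 for all named genes. Without 3717 T1 the median SD of the p53f/f group was 0.61, and without 5283 T7 that of p53LKO HCC was 0.49.

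**Figure D2:**
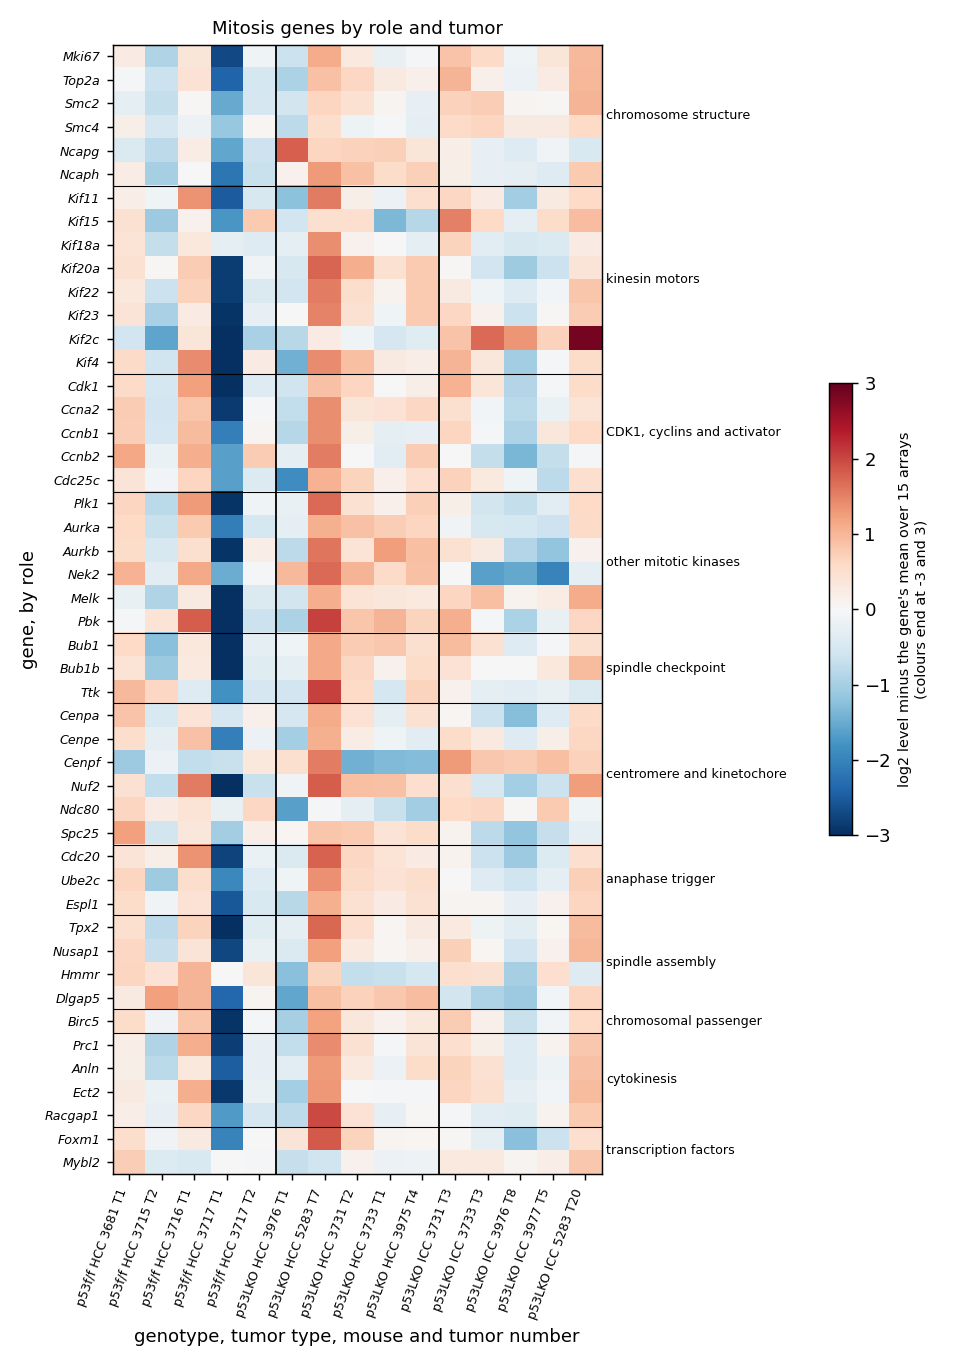
Levels of the 48 mitosis genes (rows, by role) in the 15 tumors (columns, by group, mouse and tumor number), as the log2 level minus the mean of the gene over all arrays, blue below and red above the mean, with colours ending at -3 and 3. The column of 3717 T1 is blue in nearly every row and that of 5283 T7 red, Kif2c is darkest red in ICC 5283 T20, and Nek2 is deepest blue among ICCs in 3733 T3, 3976 T8 and 3977 T5.

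The core genes follow one by one. Mki67, which coats the surface of mitotic chromosomes, was at 2.49, 1.34, 2.62, -0.46 and 2.11 in p53f/f HCC (in the order 3681 T1, 3715 T2, 3716 T1, 3717 T1 and 3717 T2, kept below), at 1.59, 3.35, 2.53, 2.03 and 2.22 in p53LKO HCC (3976 T1, 5283 T7, 3731 T2, 3733 T1 and 3975 T4) and at 3.11, 2.81, 2.11, 2.61 and 3.23 in ICC (3731 T3, 3733 T3, 3976 T8, 3977 T5 and 5283 T20). The groups overlapped, and without 3717 T1 the difference between the HCC groups was 0.21 in place of 0.73. Top2a, the topoisomerase that untangles sister chromatids, was at -0.58, -1.16, -0.09, -2.92 and -1.05 in p53f/f HCC, at -1.48, 0.35, 0.11, -0.26 and -0.38 in p53LKO HCC and at 0.49, -0.36, -0.69, -0.27 and 0.48 in ICC. Here 3717 T1 and 3976 T1 were the low tumors of the HCC groups.

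Cdk1, the kinase that drives entry into mitosis, was at 1.64, 0.55, 2.31, -2.03 and 0.68 in p53f/f HCC, at 0.48, 1.94, 1.72, 1.09 and 1.25 in p53LKO HCC and at 2.12, 1.43, 0.19, 1.03 and 1.62 in ICC. Its cyclin partner Ccnb1 was at 1.39, 0.15, 1.60, -1.40 and 0.75, at -0.20, 2.04, 0.84, 0.38 and 0.40, and at 1.30, 0.63, -0.28, 1.00 and 1.25 in the same groups. For both genes 4 of the 5 p53f/f tumors lay within the range of the p53LKO HCCs or above it. Dimmer probes with the same gene names did not all point the same way between the HCC groups. Their log2 differences were 0.79 and -0.64 for Cdk1, beside 0.66 for the brightest probe, and -0.26 and 0.16 for Ccnb1, beside 0.19. The array design places both dimmer Ccnb1 probes on chromosome 7, whereas the gene lies on chromosome 13, so what they measure was not tested. The Cdk1 probe at -0.64 and the dimmer Dlgap5 probe were well above background in no ICC. Of 10 genes with several tested probes, the signs differed in 4 between the HCC groups (Birc5, Ccnb1, Cdk1 and Tpx2), in 2 in ICC against p53LKO HCC (Birc5 and Ccnb1) and in 4 in ICC against p53f/f HCC (Ccnb1, Cdk1, Dlgap5 and Tpx2), and no probe of these genes was called. Plk1, a kinase of centrosome maturation and chromosome separation, was at 2.38, 0.93, 3.02, -1.19 and 1.61 in p53f/f HCC, at 1.53, 3.44, 2.20, 1.91 and 2.46 in p53LKO HCC and at 1.93, 1.20, 1.03, 1.41 and 2.34 in ICC. Aurkb, the kinase of the chromosomal passenger complex, was at -2.72, -3.75, -2.78, -6.22 and -3.06, at -4.06, -1.66, -2.86, -2.02 and -2.37, and at -2.82, -3.00, -4.15, -4.45 and -3.13. It was well above background in 3 p53f/f HCCs, 4 p53LKO HCCs and none of the 5 ICCs, so that in ICC these values are only bounds.

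Bub1b, which holds back anaphase until all chromosomes are attached, was at -1.34, -2.86, -1.47, -4.84 and -2.11 in p53f/f HCC, at -2.05, -0.61, -1.14, -1.64 and -1.21 in p53LKO HCC and at -1.32, -1.76, -1.75, -1.45 and -0.82 in ICC. Cdc20, which activates the anaphase-promoting complex, was at 2.50, 2.31, 3.46, -0.65 and 1.92, at 1.70, 3.90, 2.74, 2.54 and 2.36, and at 2.23, 1.47, 1.03, 1.72 and 2.63. The groups overlapped for both. Birc5 (survivin), a subunit of the chromosomal passenger complex, was at 3.68, 3.03, 3.95, 0.19 and 3.06 in p53f/f HCC, at 2.12, 4.33, 3.46, 3.26 and 3.45 in p53LKO HCC and at 3.88, 3.27, 2.47, 3.04 and 3.72 in ICC. Foxm1, the transcription factor of the late cell cycle, was at -0.50, -1.13, -0.74, -3.01 and -1.03, at -0.64, 0.82, -0.35, -0.94 and -0.96, and at -0.99, -1.32, -2.27, -1.66 and -0.52. For these 2 genes 3717 T1 lay far below the other 4 p53f/f tumors, which were close together. None of the 10 core genes was called by limma in any of the 3 comparisons, and 2 of these 30 tests had an unadjusted p under 0.05, Foxm1 in ICC against p53LKO HCC and Top2a in ICC against p53f/f HCC. The spike-in scaling, described below, called Mki67 (1.54), Top2a (1.64), Plk1 (1.77), Aurkb (1.93), Bub1b (2.01) and Foxm1 (1.68) higher in p53LKO HCC than in p53f/f HCC, where 41.6% of all tested genes rose. It also called Mki67, Top2a and Bub1b higher in ICC than in p53f/f HCC, where 28.3% of all tested genes rose.

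Mitosis genes as a group leaned towards higher levels in p53LKO HCC than in p53f/f HCC, but few of them differed beyond the spread between tumors, and the size of the lean depended on single tumors. The mean was higher in p53LKO HCC for 44 of 48 genes, with a median log2 difference of 0.73 against 0.14 over all named genes. It was higher for 13245 of the 22594 named genes and 9421 of the 16860 tested ones, whose median was 0.09. A gene was called when limma's adjusted p was under 0.05 and the change over 2-fold, and 45 of the 48 were bright enough to test, all but Kif15, Ttk and Cenpf, with Ncapg entering through its p53LKO HCC arrays alone. The condensin subunits Ncapg and Ncaph rose, 2 of 45, where 5.42% of all 16860 tested genes rose. The kinetochore subunit Ndc80 fell, 1 of 45, where 8.96% of all tested genes fell. With this scaling the share that rose was near the background and the share that fell was below it. Another scaling changed the balance of all calls: higher genes made up 37.7% of calls as given, 54.3% after normexp background correction, 15.9% after scaling to probes detected on all arrays and 93.1% after scaling to the spike-in probes, which moved the median of all tested genes from 0.09 to 0.91. With the spike-in scaling 28 of the 45 members were called, all higher, where 41.6% of all tested genes rose, a share above the background, so that the reading of the count depended on the scaling.

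Leaving out single tumors moved the median difference of 0.73 to between 0.26 and 1.05, the highest without 3716 T1. It was 0.26 without 3717 T1 (33 genes positive), 0.52 without 5283 T7 (39 positive) and -0.02 without both (22 positive). These 2 were singled out by the levels themselves, as the lowest of one group and the highest of the other, so a smaller difference without them follows from the choice. Within the upper slide row, where neither p53LKO HCC of the lower row enters, the median difference was 0.74 (3 p53LKO HCCs against 5 p53f/f HCCs). It was 0.89 on slide 1 (2 against 4), where both tumors that stood apart lay, and 0.60 on slide 2 (3 against 1). With the 2 tumors of mouse 3717 averaged it was 0.53 and the same number of members, 3, was called.

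Condensin is the ring complex that folds chromosomes into compact rods, and 4 of its subunits are among the 48 genes. Ncapg, measured at chr5:46091679-46091738 of mm9, was at -5.05, -5.41, -4.41, -6.18 and -5.25 in p53f/f HCC, at -2.84, -3.97, -3.94, -3.91 and -4.26 in p53LKO HCC and at -4.43, -4.88, -5.01, -4.72 and -5.08 in ICC. All 5 p53LKO HCCs lay above all p53f/f HCCs and all ICCs. The probe was dim: no p53f/f HCC and no ICC was well above background, against 4 p53LKO HCCs, so the change between the HCC groups is given as at least 1.57-fold (limma adjusted p = 0.00785). As the probe was tested because of the group in which it was high, this p is a description and no support. The call was lost after normexp background correction, with a log2 difference of 0.02. Ncaph, at chr2:126929625-126929684, was at 1.26, 0.04, 1.01, -1.15 and 0.36, at 1.16, 2.31, 1.91, 1.58 and 1.74, and at 1.21, 0.77, 0.76, 0.63 and 1.82 in the same 3 groups. It was bright in every tumor, and 4 of 5 p53LKO HCCs lay above all p53f/f HCCs. The log2 fold change was 1.44 ± 0.41 (SE; limma adjusted p = 0.022). It was 1.07 without 3717 T1 (adjusted p = 0.0296) and 0.93 without both tumors that stood apart, where it no longer passed (adjusted p = 0.0521), as with quantile normalization (1.34, adjusted p = 0.053) and with the slide row as a block (1.44, adjusted p = 0.058). The core subunits Smc2 and Smc4, shared with the second condensin complex, differed by 0.67 ± 0.32 and 0.18 ± 0.30 between the HCC groups (limma adjusted p = 0.127 and 0.677).

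Ndc80, a subunit of the 4-protein rod that binds spindle microtubules at the kinetochore, was 1 of 4 members with a lower mean in p53LKO HCC, beside Hmmr, Mybl2 and Kif15, and the one called. It was at -0.61, -1.02, -0.84, -1.47 and -0.63 in p53f/f HCC, at -2.89, -1.29, -1.54, -1.93 and -2.29 in p53LKO HCC and at -0.65, -0.63, -1.21, -0.47 and -1.38 in ICC. Only p53f/f tumor 3717 T1 fell into the range of the p53LKO HCCs. The log2 fold change was -1.07 ± 0.30 (SE, limma adjusted p = 0.0199), close to the 2-fold limit, and was lost in 8 of 23 alternatives. It was -0.85 without p53LKO HCC 3976 T1 and just under 2-fold without 3975 T4 or 3681 T1. Without 3717 T2 it was -1, with a limma adjusted p of 0.0501. By processing it was lost with the spike-in scaling (-0.26, adjusted p = 0.559), normexp background correction (-0.75), quantile normalization (-0.82, adjusted p = 0.0779) and the slide row as a block (adjusted p = 0.0659). Its partners in the rod, Nuf2 and Spc25, had log2 differences of 1.51 ± 0.87 and 0.50 ± 0.38 (limma adjusted p = 0.204 and 0.334). The array design gives no genome position for the Ndc80 probe, and whether it measures the full transcript was not tested. Hmmr, a microtubule-binding protein of spindle assembly, had the next lowest difference. It was at 1.56, 1.35, 1.93, 0.90 and 1.27 in p53f/f HCC, at -0.35, 1.58, 0.19, 0.25 and 0.39 in p53LKO HCC and at 1.41, 1.36, -0.09, 1.41 and 0.52 in ICC. Without 5283 T7, the one high p53LKO HCC, the difference of -0.99 (limma adjusted p = 0.0407, under 2-fold) became -1.28 (adjusted p = 0.00297), and it was also called with quantile normalization (-1.11), with scaling to probes detected on all arrays (-1.25) and without 3717 T1 (-1.12).

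By role, the mean was higher in p53LKO HCC for all 6 genes of chromosome structure, all 5 of the Cdk1 group, all 6 other kinases, all 3 checkpoint genes, all 3 of the anaphase trigger and all 4 of cytokinesis. It was higher for 7 of the 8 kinesins, 5 of 6 centromere and kinetochore genes, 3 of 4 spindle assembly genes, Birc5 and 1 of the 2 transcription factors. All roles were measured in the same tumors and are not separate support. Without both tumors that stood apart fewer genes were positive, as given above. The largest differences without a call were those of Pbk, a kinase of dividing cells, at 1.54 ± 1.17, Bub1, a checkpoint kinase, at 1.51 ± 0.72, and Nuf2, whose limma adjusted p were 0.333, 0.130 and 0.204. In the Cdk1 group the differences were small for the B cyclins: Ccnb1 and Ccnb2 differed by 0.19 and 0.11 with 95% intervals from -1.07 to 1.46 and from -1.10 to 1.33, so that changes of over 2-fold either way are within them. Kif11, the motor that pushes the spindle poles apart, differed by 0.48 ± 0.67, and the cytokinesis genes Prc1, Anln, Ect2 and Racgap1 by 0.43 to 0.92.

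**Figure D3:**
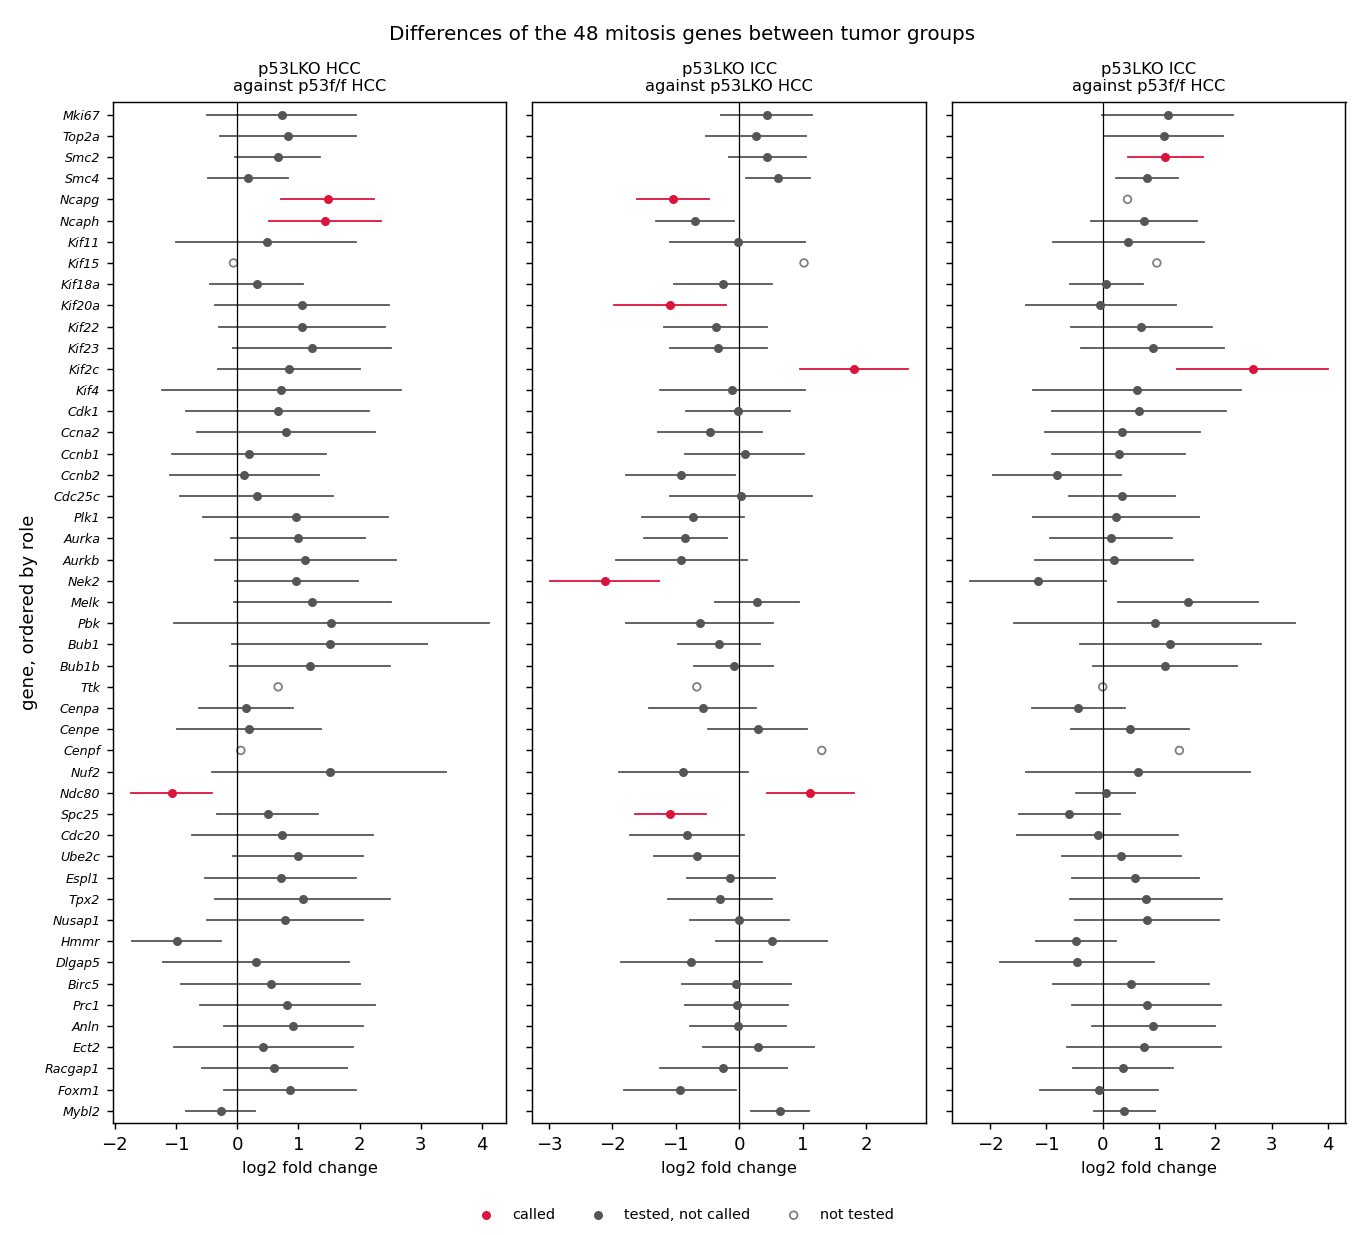
Log2 fold changes (horizontal axes) of the 48 mitosis genes, ordered by role, in the 3 comparisons, with 95% intervals from limma; red points were called, grey points were tested and not called, and open points are differences of means of genes not bright enough to test. Most points of p53LKO HCC against p53f/f HCC lie right of 0 with intervals that include 0, whereas those of ICC against p53LKO HCC lie on both sides, with Kif2c far right (1.81) and Nek2 far left (-2.12).

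Between the tumor types of p53LKO mice, mitosis genes moved in both directions. ICC was higher for 16 and lower for 32 of the 48 genes, with a median log2 difference of -0.19, against 0.18 over all named genes and -0.19 over the tested ones. The mean was higher in ICC for 12687 of the 22594 named genes and 6596 of the 16142 tested ones, so how the 48 compare depended on whether dim genes were counted. Of 45 tested genes, 7 of which were bright enough in 1 of the groups alone, Kif2c and Ndc80 rose in ICC, 2 genes, where 12.4% of all 16142 tested genes rose. Nek2, Ncapg, Kif20a and Spc25 fell, 4 genes, where 15.5% of all tested genes fell. Both shares were below the background. Scaling to probes detected on all arrays moved the median of all tested genes to 0.18 and that of the 48 to 0.17, and changed the share of higher genes among all calls from 44.3% to 68.2%, so that the direction of the lean depended on this choice. Without HCC 5283 T7 the median of the 48 was 0.08 (27 genes positive), without HCC 3976 T1 it was -0.47, without ICC 3976 T8 -0.09 and without ICC 5283 T20 -0.30. Within the lower slide row it was -0.15 (5 ICCs against 2 p53LKO HCCs), on slide 1 0.16 (1 against 2) and on slide 2 -0.28 (4 against 3).

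Kif2c, a kinesin that does not walk but takes microtubules apart at centromeres and so corrects faulty attachments, was the member with the largest rise in ICC. Measured at chr4:116832728-116832787 of mm9, it was at -2.58, -3.59, -1.64, -5.09 and -2.98 in p53f/f HCC, at -2.85, -1.76, -2.14, -2.51 and -2.37 in p53LKO HCC and at -1.16, -0.31, -0.68, -1.31 and 0.87 in ICC. With this probe all 5 ICCs lay above all 10 HCCs. The log2 fold change against p53LKO HCC was 1.81 ± 0.39 (SE, limma adjusted p = 0.0039), and a second probe of the gene, at chr4:116832904-116832963, gave 1.77 ± 0.52 (limma adjusted p = 0.0186). With the second probe HCC 5283 T7 (-1.46) lay above ICC 3731 T3 (-1.56) and 3977 T5 (-1.48). The log2 fold change passed under all 23 alternatives in which it was tested, with values from 1.22 to 2.18. Against p53f/f HCC it was 2.66 ± 0.61 (limma adjusted p = 0.00761), and the second probe gave 2.63 (limma adjusted p = 0.0121); this call was lost with the slide as a block, at 2.34 (adjusted p = 0.0766).

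Nek2, a kinase that frees the paired centrosomes from each other, showed the opposite change. Measured at chr1:193656343-193656402, it was at -0.27, -1.64, -0.18, -2.79 and -1.34 in p53f/f HCC, at -0.33, 0.40, -0.29, -0.73 and -0.42 in p53LKO HCC and at -1.31, -2.93, -2.84, -3.30 and -1.61 in ICC. All ICCs lay below all p53LKO HCCs and within or just below the range of p53f/f HCC. The log2 fold change in ICC against p53LKO HCC was -2.12 ± 0.39 (SE; limma adjusted p = 0.00174), with values from -2.43 to -1.09 over 22 alternatives. It was well above background in 2 of 5 ICCs and in all p53LKO HCCs, and thus entered the test through the group in which it was high, so that the size is uncertain and the call is a description. The other kinases of the group lay lower in ICC as well, Aurka, which matures the centrosomes, by -0.85 ± 0.30 (limma adjusted p = 0.0377, under 2-fold) and Plk1 by -0.73 ± 0.36 (0.125), with Melk, at 0.28 ± 0.30 (0.476), on the other side.

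**Figure D4:**
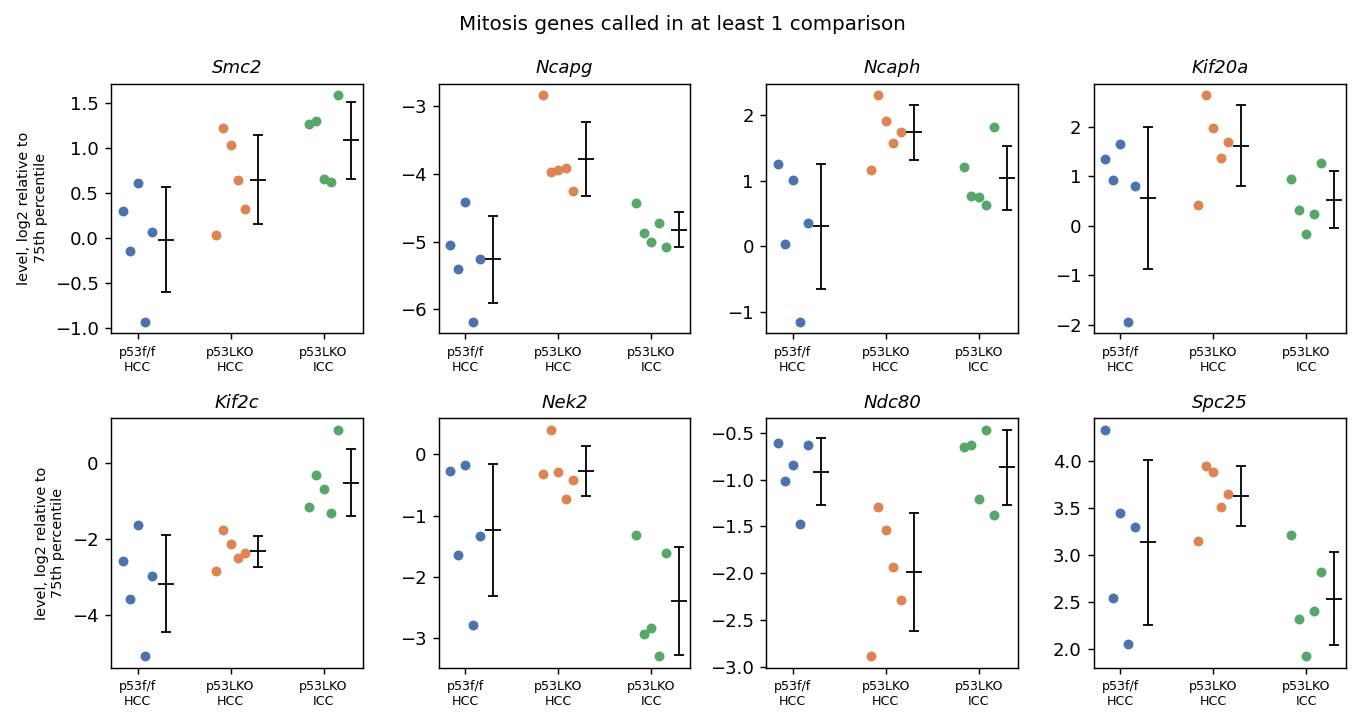
Levels (vertical axes, log2 relative to the 75th percentile of the array) of the 8 mitosis genes called in at least 1 comparison; each point is 1 tumor of p53f/f HCC (blue), p53LKO HCC (orange) or p53LKO ICC (green), and bars give the mean ± SD of 5. All ICCs lie above all HCCs for Kif2c, all p53LKO HCCs lie above the other tumors for Ncapg, and 4 of the 5 p53LKO HCCs lie below all other tumors for Ndc80.

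The remaining calls between ICC and p53LKO HCC were each lost under several alternatives. Kif20a, a kinesin of the central spindle, was at 1.36, 0.93, 1.66, -1.94 and 0.80 in p53f/f HCC, at 0.42, 2.65, 1.99, 1.37 and 1.69 in p53LKO HCC and at 0.95, 0.32, -0.16, 0.25 and 1.28 in ICC. HCC 3976 T1 lay within the ICC range, and the change of -1.10 ± 0.40 (SE; limma adjusted p = 0.0448) was lost under 15 of 23 alternatives, among them leaving out any of 8 tumors, of which the value without HCC 5283 T7, at -0.84 (adjusted p = 0.0947), was the smallest. Spc25, of the same kinetochore rod as Ndc80 and measured at chr2:69031953-69032012, was at 4.33, 2.54, 3.44, 2.05 and 3.30, at 3.15, 3.94, 3.88, 3.51 and 3.65, and at 3.21, 2.32, 1.92, 2.40 and 2.82 in the 3 groups. Its log2 fold change in ICC was -1.09 ± 0.26 (SE; limma adjusted p = 0.00625), and -0.94 without ICC 3976 T8, under 2-fold. It was also lost with scaling to probes detected on all arrays (-0.72), with quantile normalization (-0.76) and with the slide row as a block (adjusted p = 0.0581). Ndc80 itself rose by 1.12 ± 0.31 (SE; limma adjusted p = 0.0141), from a mean of -1.99 to -0.87, by 0.89 without HCC 3976 T1, by 0.71 after normexp background correction, by 0.98 after quantile normalization (all under 2-fold), by 1.22 with the slide row as a block (adjusted p = 0.06) and, no longer passing either, by 0.94 in the 4 mice with both tumors with the mouse as a block (adjusted p = 0.0791). Ncapg, whose levels are given above, was called lower (limma adjusted p = 0.00869), but as no ICC was well above background no fold is given, and the call was lost without ICC 3976 T8, ICC 5283 T20 or HCC 3976 T1, after normexp background correction, with scaling to probes detected on all arrays and with the slide as a block. Other calls appeared without 1 tumor: Aurka (-1.07) without HCC 3976 T1, and Aurka (-1.05) and Foxm1 (-1.15) without ICC 5283 T20. Aurkb and Dlgap5 without HCC 3976 T1 and Nuf2 without ICC 5283 T20 were called lower too, but they were well above background in none, 1 and 2 of the 5 ICCs and entered the test through the group in which they were high, so no size is given and the calls are no support.

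Among the transcription factors, Mybl2 lay higher in ICC and Foxm1 lower. Mybl2 was at 1.05, -0.09, -0.14, 0.29 and 0.26 in p53f/f HCC, at -0.39, -0.29, 0.43, 0.14 and 0.15 in p53LKO HCC and at 0.60, 0.61, 0.40, 0.52 and 1.12 in ICC, a difference of 0.64 ± 0.21 between the tumor types (limma adjusted p = 0.0267, under 2-fold), which with scaling to probes detected on all arrays was 1.01 and called (limma adjusted p = 0.00324). The array design places this probe on chromosome 19, whereas the gene lies on chromosome 2, and the brightest probe on chromosome 2 gave 1.02 ± 0.47 (limma adjusted p = 0.0984). Foxm1 differed by -0.94 ± 0.40 (limma adjusted p = 0.0754). No cyclin was called: Ccnb1 differed by 0.09 ± 0.42, Ccna2 by -0.46 ± 0.37 and Ccnb2 by -0.92 ± 0.39 (limma adjusted p = 0.0745), and Cdk1 by -0.02 ± 0.37 with a 95% interval from -0.84 to 0.80. Mki67 was 0.43 ± 0.33 higher in ICC with an interval from -0.29 to 1.15, so that a change of over 2-fold upwards is within it.

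ICC was also compared with p53f/f HCC, a pair that differs in genotype and in tumor type. The mean was higher in ICC for 38 of 48 genes, with a median log2 difference of 0.49 against 0.12 over all named genes. It was higher for 12418 of the 22594 named genes and 7056 of the 16797 tested ones, whose median was -0.16. Of 44 tested genes, 6 of which were bright enough in 1 of the groups alone, Kif2c and Smc2 rose, 2 genes, where 11.3% of all 16797 tested genes rose. No mitosis gene was called lower by limma, where 11.9% of all tested genes fell; 5 of the 44 had an unadjusted p under 0.05 in either direction, and the spike-in scaling called none lower and 12 higher, where 28.3% of all tested genes rose. Without 3717 T1, Ccnb2 was called lower (-1.27, limma adjusted p = 0.027), and so was Nek2 (limma adjusted p = 0.0402), which was well above background in 2 ICCs and entered through the p53f/f HCC arrays alone. Without 3716 T1, Top2a (1.36, limma adjusted p = 0.0497) and Melk (1.80, limma adjusted p = 0.0367) were called higher, and Melk was also called, at 1.51, with no filter on dim probes and with all 15 arrays in 1 model. Spike-in scaling moved the median of all tested genes from -0.16 to 0.61 and the share of higher genes among all calls from 48.6% to 90.6%, and testing without a filter on dim probes made that share 72.4%. Without 3717 T1 the median of the 48 genes was 0.00 (24 genes positive), and without 3716 T1 it was 0.79. It was 0.91 on slide 1 (1 ICC against 4 p53f/f HCCs) and 0.37 on slide 2 (4 against 1).

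Smc2, a core subunit of both condensins, measured at chr4:52501012-52501071, was at 0.30, -0.14, 0.61, -0.93 and 0.07 in p53f/f HCC, at 0.03, 1.22, 1.03, 0.65 and 0.32 in p53LKO HCC and at 1.27, 1.30, 0.66, 0.62 and 1.59 in ICC. All ICCs lay above all p53f/f HCCs, by 0.62 against 0.61 at the nearest pair. The log2 fold change was 1.11 ± 0.30 (SE; limma adjusted p = 0.0176), and 0.88 without 3717 T1 and 0.98 without ICC 5283 T20, both under 2-fold, as was the 0.96 after normexp background correction. With the slide as a block it was 1.14 (adjusted p = 0.089). Smc4, its partner, was at 1.81, 1.14, 1.46, 0.50 and 1.70, at 0.86, 2.16, 1.50, 1.60 and 1.37, and at 2.21, 2.29, 1.91, 1.91 and 2.23. All ICCs again lay above all p53f/f HCCs, with a difference of 0.79 ± 0.25 that stayed under 2-fold (limma adjusted p = 0.0309). The condensin I subunit Ncaph differed by 0.74 ± 0.43 (limma adjusted p = 0.202) and Ncapg was not bright enough to test.

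The 3 comparisons share tumors, so their values are set side by side and not counted as separate support. Ordered by group mean, 24 of the 48 genes ran from p53f/f HCC over ICC to p53LKO HCC and 12 from p53f/f HCC over p53LKO HCC to ICC. ICC was lowest for 8 genes and p53LKO HCC was lowest for 4.

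**Figure D5:**
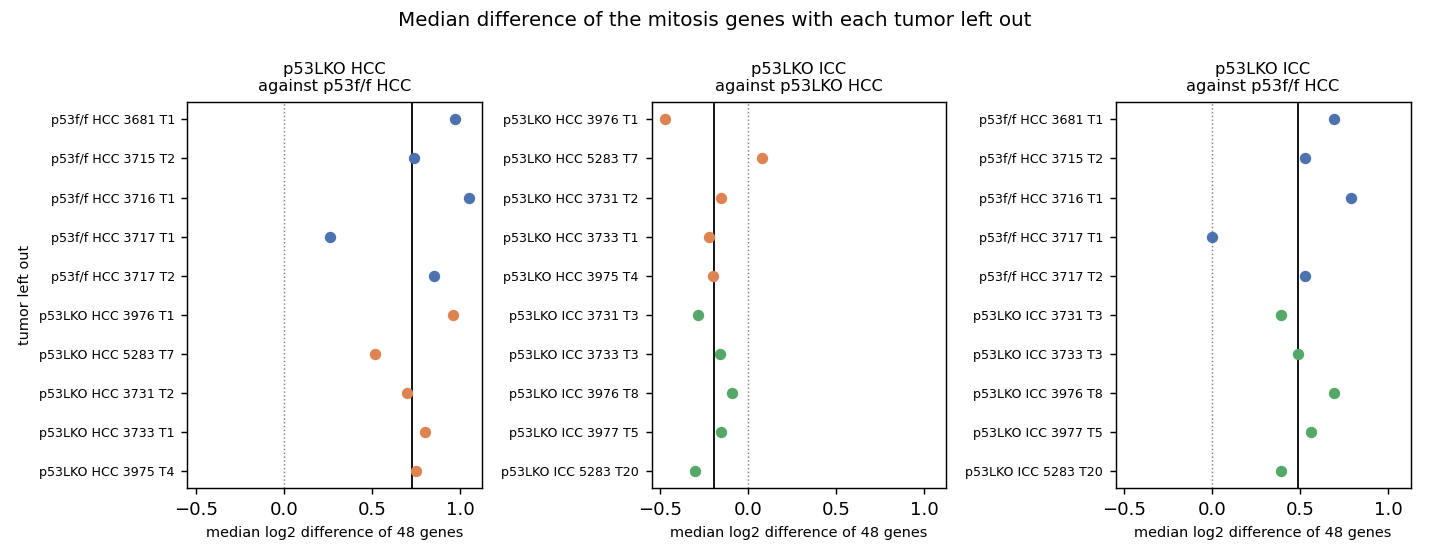
Median log2 difference of the 48 mitosis genes (horizontal axes) in each comparison after leaving out the tumor named on the vertical axis, coloured by its group; the black line is the median with all tumors and the dotted line is 0. Leaving out 3717 T1 moves the medians against p53f/f HCC most, to 0.26 and 0.00, and leaving out 5283 T7 moves the median of ICC against p53LKO HCC to 0.08.

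A further 56 genes of mitosis that are not among the 48, such as other passenger proteins, kinetochore subunits and kinesins, were counted in the same way. Their median log2 difference was 0.66 in p53LKO HCC against p53f/f HCC, -0.22 in ICC against p53LKO HCC and 0.51 in ICC against p53f/f HCC. Between the HCC groups 2 of 54 tested rose, Lmnb1 (a nuclear lamina protein) by 2.14 and Cit (a kinase of cytokinesis) by 1.68 (limma adjusted p = 0.00359 and 0.0279; Cit was well above background in 2 p53f/f HCCs and 3 p53LKO HCCs, and entered through the latter), and none was called lower by limma, with 9 of the 54 at an unadjusted p under 0.05 in either direction. Between the p53LKO tumor types 54 were tested, 11 of them bright enough in 1 of the groups alone, which makes the size of a change uncertain. Of the 54, 1 rose in ICC and 5 fell, among them Ckap2 by 1.83, Cdca2 by 1.37 and Cdca3 by 1.15. Against p53f/f HCC 53 were tested, 10 of them bright enough in 1 of the groups alone. Of the 53, 6 rose in ICC, among them Cenph by 1.24 and Fbxo5 by 1.21, and 2 fell, among them securin, Pttg1, by 1.51 (limma adjusted p = 0.00328). Without 3717 T1 the last count became none higher and 4 lower. Over all tested genes the shares are those given above, 5.42% higher and 8.96% lower, 12.4% and 15.5%, and 11.3% and 11.9% in the 3 comparisons.

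DNA replication genes, which act in S phase before mitosis, showed more calls between the HCC groups than mitosis genes did. Of 40 tested, 15 rose in p53LKO HCC and 1 fell, where 5.42% and 8.96% of all tested genes did, with a median difference of 0.92 over the 44 genes of the list, and the helicase subunits Mcm6 and Mcm2 rose by 1.98 and 1.53 (limma adjusted p = 0.00208 and 0.00414). Pola2, a subunit of the priming polymerase, was not well above background in any p53f/f HCC and was at least 2.12-fold higher in p53LKO HCC (limma adjusted p = 0.0014), a description, as it entered the test through the group in which it was high. The count higher was 8 without both tumors that stood apart. Whether the lists differ was not tested. In ICC against p53LKO HCC 1 of 40 rose (Pold1, by 2.33) and 5 fell, beside 12.4% and 15.5% of all tested genes, among them Rrm2 by 1.78 and Ccne1 by 1.30, and against p53f/f HCC 8 of 39 rose and 2 fell, beside 11.3% and 11.9%, with Pold1 at 3.43, Mcm10 at -1.96 and Uhrf1 at 1.66.

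The lists of regulators held calls in both directions. Of 17 p53 target genes, 16 were tested, and 3 fell in p53LKO HCC against p53f/f HCC, where 8.96% of all tested genes fell: Phlda3 by 2.12, Btg2 by 1.53 and Trp53inp1 by 1.17. By the adjusted p alone 8 of the 16 were lower and none higher, where 13.7% and 14.4% of all tested genes were. Cdkn1a, the gene of p21, differed by 0.14 between the HCC groups (limma adjusted p = 0.782) and fell by 1.79 in ICC against p53LKO HCC (limma adjusted p = 0.00203) and by 1.65 against p53f/f HCC (limma adjusted p = 0.00279). In ICC against p53LKO HCC 5 of the 16 p53 targets rose, where 12.4% of all tested genes rose, with Pmaip1 at 3.14 and Phlda3 at 2.21, and Cdkn1a was the 1 that fell, and against p53f/f HCC 2 rose, Pmaip1 and Gadd45a, and 2 fell, Btg2 and Cdkn1a, of 16, beside 11.3% and 11.9% of all tested genes. Of 20 DREAM, Rb and E2F genes, E2f1 rose in p53LKO HCC by 1.12, and Nfya, a subunit of the factor that reads CCAAT, and E2f5 rose in ICC, by 1.94 and 1.02 against p53LKO HCC and by 1.56 and 1.07 against p53f/f HCC. These are 1 of 20 and 2 of 20 in each ICC comparison, near or below the shares of all tested genes that rose, 5.42%, 12.4% and 11.3%. Of 13 tested subunits and partners of the anaphase-promoting complex, Cdc27 fell in p53LKO HCC by 1.92 and Anapc13 in ICC against p53LKO HCC by 1.13. These are 1 of 13 each, near or below the 8.96% and 15.5% of all tested genes that fell. By the limma adjusted p alone 6 of the 13 were higher and 1 lower in p53LKO HCC, where 14.4% and 13.7% of all tested genes were. In ICC against p53LKO HCC none was higher and 6 were lower, where 2855 and 4788 of all 16142 tested genes were.

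Markers of other cells also moved with the groups. The neutrophil genes S100a8 and S100a9 rose in p53LKO HCC against p53f/f HCC by 1.84 and 2.10 (limma adjusted p = 0.0233 and 0.00794), 2 of 3 tested, where 5.42% of all tested genes rose, and the third, Mpo, differed by -0.04. The median of 6 stellate cell and fibroblast markers was 4.18 to 5.31 in ICC, 0.21 to 2.49 in p53f/f HCC and 1.95 to 3.70 in p53LKO HCC, and that of 5 macrophage markers was 3.35 to 4.37 in ICC, 0.83 to 3.05 in p53f/f HCC and 1.76 to 3.71 in p53LKO HCC. Not all genes of these lists were higher in ICC: against p53LKO HCC, Lrat and Des of the stellate cell list differed by -1.22 and -0.39, and Csf1r and Clec4f of the macrophage list by -0.02 and -0.64, none of them called. The median of 4 erythroid markers was -0.17 to 0.92 in ICC and 1.71 to 3.80 in the 10 HCCs, and 3 of 3 tested fell in ICC against p53LKO HCC, where 15.5% of all tested genes fell. The part of blood and of dividing stromal or immune cells in the levels of mitosis genes was not tested.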

How the data were processed

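RNA of 15 whole tumors was labelled with Cy3 and hybridised, 1 sample per array, to a mouse array with 55681 probes that are not controls, on 2 slides. The authors deposited the scanner output of Feature Extraction 10.7.3.1, whose processed signal is an intensity with background subtracted and not normalized between arrays, and a value table of log2 signals, used as an alternative for the HCC groups. The mice received 0.5 µl CCl4 per g per the labels every 3 days, and the methods give a schedule per week.

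Log2 of the processed intensity was centred on the 75th percentile of each array, outlier-marked spots were left out and spots of a probe were averaged. Positions are those of the array design (mm9). Probes well above background on at least 3 of 5 arrays of either group entered limma 3.58.1 in R 4.3.3 (lmFit and eBayes on the 10 arrays of a comparison), with Benjamini-Hochberg adjustment over all tested probes, and were called at an adjusted p under 0.05 and over 2-fold. The spread is that between tumors, and the number of arrays limits the precision. A value whose group is nowhere well above background is a bound. No probe was saturated, and the steps were tested on simulated data.

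Levels on every array were printed by rule for 10 core genes, for up to 5 called members with the largest change in each comparison and for members with a called probe whose probes differed in direction, of which there were none. Levels or values of other members, among them Hmmr, Mybl2, Smc4 and calls that appeared without 1 tumor, were added after their values were seen. Of the other lists the 3 called genes with the largest change were named, and Cdkn1a. The 48 genes and all lists were chosen with earlier results of these data known. The pairing of HCC and ICC rests on the labels, which give the same mouse: same-mouse deviations from the group means correlated at -0.143 to 0.0655 over probes, other pairs at -0.263 to 0.284. Alternatives covered background correction, scaling, filters, blocks and leaving out tumors, and leaving out both tumors that stood apart, the choice of the Mybl2 probe and the counts of other lists were added after seeing the data. Figures were drawn with matplotlib 3.10.9 in Python 3.11.15.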

Additional observations from a re-analysis of the deposited data

Results flagged for a closer look

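Of 144 sets of 5 tumors (48 genes in 3 groups), 8 held a tumor whose gap to its nearest neighbour was over 0.71 of the range of the set; chance at 1 in 20 gives 7.2. In p53f/f HCC, tumor 3717 T1 was the low one for Kif20a (-1.94, the others 0.80 to 1.66), Birc5 (0.19, the others 3.03 to 3.95) and Foxm1 (-3.01, the others -1.13 to -0.50). In p53LKO HCC, 5283 T7 was high for Kif18a (-1.44, the others -3.14 to -2.71), and 3976 T1 was high for Ncapg (-2.84, the others -4.26 to -3.91) and low for Dlgap5 (-4.61, below background, the others -2.37 to -2.14). In ICC, 3976 T8 was low for Kif11 (-3.48, below background, the others -2.18 to -1.81) and 5283 T20 high for Mybl2 (1.12, the others 0.40 to 0.61).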

How the results depend on the processing

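The counts of mitosis genes called, 3 in p53LKO HCC against p53f/f HCC, 6 in ICC against p53LKO HCC and 2 in ICC against p53f/f HCC, changed with scaling, filter and block. Scaling to the spike-in probes called 28 and 12 in the comparisons with p53f/f HCC, all higher. Normexp background correction called 1 in each of these comparisons, and so did testing probes well above background on every array. The latter called 3 in ICC against p53LKO HCC, as did quantile normalization. With the slide row as a block, 1 was called between the HCC groups and 3 between the p53LKO tumor types; in ICC against p53f/f HCC the row could not be fitted, the slide as a block called 0 and no filter on dim probes called 4. Leaving out each tumor gave 2 to 4, 3 to 8 (3 without ICC 3976 T8) and 1 to 4 calls (1 without ICC 5283 T20, 4 without p53f/f HCC 3716 T1).

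The median difference of the 48 genes ranged over single tumors left out from 0.26 to 1.05 (p53LKO HCC against p53f/f HCC; lowest without 3717 T1), from -0.47 to 0.08 (ICC against p53LKO HCC; -0.47 without HCC 3976 T1) and from 0 to 0.79 (ICC against p53f/f HCC; 0 without 3717 T1). Its sign turned to -0.02 between the HCC groups without both tumors that stood apart, and in ICC against p53LKO HCC to 0.17 with scaling to probes detected on all arrays and to 0.08 without HCC 5283 T7; the cause was not tested. No called gene changed direction under any alternative. The replicate block, with the mouse as a random term, kept the count in ICC against p53LKO HCC at 6, and with the 4 mice as a fixed term it was 5. A random term for the mouse could not be estimated in the other comparisons, where 1 mouse at most repeats. The deposited value table gave 3 calls between the HCC groups. Dim genes are limited by background: with the filter on dim probes Kif15, Ttk and Cenpf were tested in no comparison.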
